A study of Mus musculus with 6 samples.

Results

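The genes described here are the forkhead (Fox), Sox, Runx, T-box (Tbx) and Gata transcription factors of the proximal mouse incisor, the end of the continuously growing tooth that holds its stem cells. They were chosen by name: every gene called Fox with a letter from a to s, Sox, Runx, Tbx or Gata followed by a number, leaving out Sox2, Sox10, Foxd3, Runx2 and Tbx1. By this rule 52 of the 19270 genes in the table were members, 28 Fox, 13 Sox, 7 Tbx, 2 Runx and 2 Gata genes. RNA was sequenced in bulk from 3 control and 3 Arid1b mutant samples, collected 4 days after tamoxifen given at 1 month of age. The labels name the tissue as incisor, and the methods describe dissected proximal mesenchyme. Arid1b encodes a DNA-binding subunit of the BAF chromatin remodelling complex. The mutants carried Gli1-CreER and were Arid1b fl/fl. Tamoxifen activates this Cre recombinase, which is made from the Gli1 locus. The floxed gene is so removed in cells that express Gli1 and in their progeny, and every other cell of the sample keeps it. The study reports loss of Arid1b in both the mesenchyme and the epithelium of the incisor. The controls are labelled wild type with tamoxifen induction, and the study's methods describe them as Arid1b fl/fl mice given the same tamoxifen. Sex was not given.

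These 5 families share little beyond binding short DNA motifs through a conserved domain: the forkhead domain, the HMG box of Sox factors, the Runt domain, the T-box and the zinc fingers of Gata factors. Many are lineage regulators whose cofactors and neighbours on DNA decide whether they activate or repress. In teeth, Fox and Sox members are known from both the dental epithelium, which makes enamel, and the mesenchyme, which makes dentin and pulp, and Runx factors from the same 2 tissues and from bone.

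The table gives the authors' mean per group and gene, with no value per gene and library, so no test between the groups was possible and no spread between mice can be given. The unit is a normalised signal that is not divided by gene length, and levels of different genes are compared here only per kilobase (kb) of exon. Each ratio is the mutant mean over the control mean. Its 95% interval (exact binomial, Clopper-Pearson) was computed from the reads estimated to lie behind the 2 means, and covers counting error only, leaving out the spread between mice. Estimated library sizes were 39087724 to 39868312 reads in controls and 37123643 to 49594469 in mutants, and a value of 3 reads per library corresponds to a mean of 0.103 in controls and 0.0923 in mutants. The targeted gene had a mean of 97.6 in controls and 38.0 in mutants, a ratio of 0.390. In bulk tissue, fewer cells of a type and less RNA per cell cannot be told apart. The groups also differed in sex-linked genes: Ddx3y, on the Y chromosome, was listed at the lowest control mean in the table, 0.0259, and at 65.3 in mutants, and Xist at 3368 in controls and 814 in mutants. Controls thus had Xist and next to no Y-linked signal, and the mutant mean had both, so sex appears to differ along with genotype. With group means sex and genotype cannot be told apart, and the part of sex in the values that follow was not tested.

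Of the 52 members, 38 had a mean over both groups of at least 1, and 14 were below it. Among the 38, 16 had a higher and 22 a lower mean in mutants, a split that became 20 and 18 when each group was scaled to its total signal, and 48.6% of all genes were lower as deposited and 32.8% with that scaling. Sox21, Foxi3 and Foxq1 were higher in mutants by over 1.5-fold, and no member was lower by over 1.5-fold. That is 3 of 38 members higher, where 4.14% of all 14744 genes with a mean of at least 1 passed the same fold upwards, and 0 of 38 lower, where 1.91% passed it downwards. All 3 lay among the 12 members with a mean of 1 to 10, a range in which 8.75% of all genes were higher by over 1.5-fold. With a looser line, a log2 difference of 0.32 in either direction, 5 members were higher (Runx1 and Foxp1 were added) against 9.10% of all genes, and 3 were lower (Foxn3, Sox11 and Foxd1) against 7.12%. The other 30 members lay within that line. The median log2 difference of the 38 members was -0.05, beside 0.00 for all genes. It was 0.01 with total scaling, which shifts every log2 difference, the median of all genes included, by 0.06. Their differences ran from -0.50 for Foxn3 to 2.72 for Sox21.

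**Figure D1:**
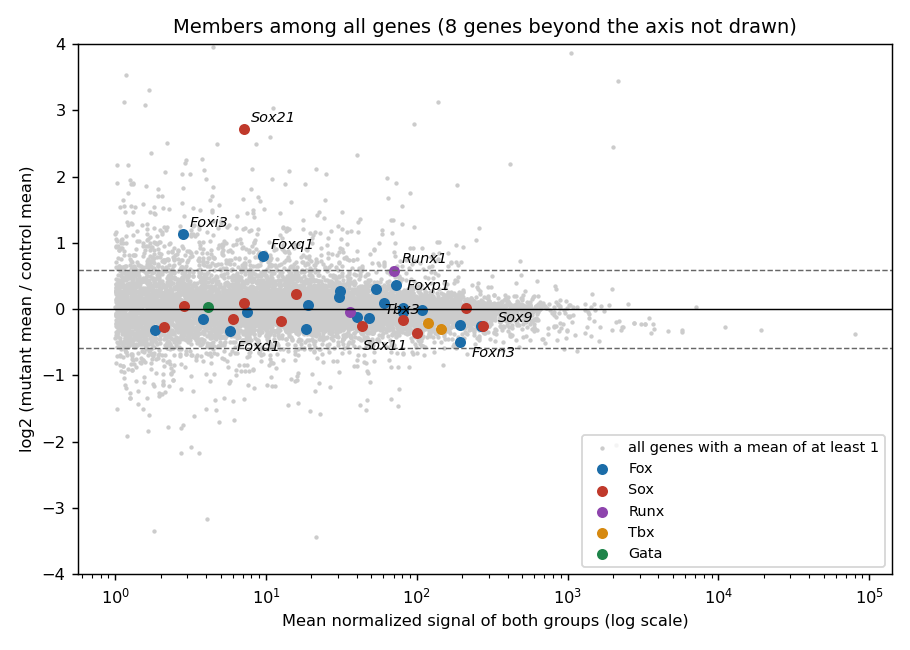
Log2 of the mutant mean over the control mean (vertical axis) against the mean normalised signal of both groups (horizontal axis, log scale) for all 14744 genes with a mean of at least 1 (grey) and the 38 members (coloured by family). The dashed lines mark 1.5-fold, and Sox21, Foxi3 and Foxq1 lie above the upper line at means below 10, Runx1 lies just under it, and no member lies below the lower line.

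The 3 members with a higher mean by over 1.5-fold are all known from ectodermal epithelium. Sox21, a Sox factor of the SoxB2 group that is expressed in dental and hair epithelium and acts mostly as a repressor, had a mean of 1.88 in controls and 12.4 in mutants. The ratio was 6.59 (5.79 to 7.73), a log2 difference of 2.72, on an estimated 215 and 1609 reads. Per kb of exon, Sox21 went from 0.495, near the bottom of the 38 members with a mean of at least 1, to 3.26, near the level of Sox5 and Sox13. Foxi3, a forkhead factor required for ectodermal appendages such as hair and teeth, had a mean of 1.76 in controls and 3.84 in mutants. Its ratio was 2.19 (1.87 to 2.61), a log2 difference of 1.13, on an estimated 201 and 497 reads. Foxq1, known for its role in hair shaft differentiation, had a mean of 7.01 in controls and 12.2 in mutants. Its ratio was 1.74 (1.60 to 1.90), a log2 difference of 0.80. The 3 counting intervals lie above a ratio of 1.5.

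The markers of dental epithelium were present in both groups, in tissue described as mesenchyme, and most were higher in mutants too. Of 14 such markers, 13 were higher and 1, Klk4, was lower in mutants, 12 of them higher by over 1.5-fold, with a median log2 difference of 1.18. Their summed mean was 1653 in controls and 10422 in mutants, most of it from the enamel matrix genes: Amelx was at 361.9 and 3946, Enam at 135.8 and 1983, and Ambn at 617.4 and 3360. Krt14 was at 90.4 and 182.3, Krt5 at 154.2 and 358.5 and Trp63, a regulator of epithelium, at 62.2 and 117.6, and these differed by less. Krt17 was at 56.7 and 133.4, and Krt15 at 1.48 and 6.32, a log2 difference of 2.09. The log2 differences of the 14 markers ran widely, from -0.31 for Klk4 to 3.87 for Enam. Those of Sox21, Foxi3 and Foxq1, 2.72, 1.13 and 0.80, lie within that wide range, which ties none of them to a given marker. The parts of epithelial content, and of Arid1b loss within the epithelium, in the values of Sox21, Foxi3 and Foxq1 were not tested.

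The promoters of Sox21 and Foxi3, which had the largest differences among the 38 members with a mean of at least 1, and of Runx1, the member nearest to the 1.5-fold line (just under it), are shown to set the sequence beside the values, since the starts differ in base composition. The sequences are RefSeq's on GRCm38.p6, written 5′ to 3′ on the gene's strand, with CpG dinucleotides in capitals. Each begins 250 bases before a RefSeq start and ends before that start or before the gene's own GENCODE exon, whichever comes first. The Foxi3 and distal Runx1 sequences end at the GENCODE exon, short of the RefSeq start. Sox21 (chr14:118233232-118237030, minus strand) is preceded by chr14:118237031-118237280, Foxi3 (chr6:70956531-70961066, plus strand) by chr6:70956356-70956530, and Runx1 (chr16:92601466-92826149, minus strand) by chr16:92826150-92826324 at its distal start and chr16:92697330-92697579 at its proximal start.
Sox21: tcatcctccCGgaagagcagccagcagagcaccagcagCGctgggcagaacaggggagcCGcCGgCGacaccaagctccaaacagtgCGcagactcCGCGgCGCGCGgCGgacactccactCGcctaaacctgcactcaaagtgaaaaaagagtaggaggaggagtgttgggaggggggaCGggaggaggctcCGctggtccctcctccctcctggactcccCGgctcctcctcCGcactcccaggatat
Foxi3: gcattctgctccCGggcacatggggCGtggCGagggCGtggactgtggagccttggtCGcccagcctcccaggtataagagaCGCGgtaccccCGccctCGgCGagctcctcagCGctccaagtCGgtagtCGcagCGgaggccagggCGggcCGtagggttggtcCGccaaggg
Runx1 proximal start: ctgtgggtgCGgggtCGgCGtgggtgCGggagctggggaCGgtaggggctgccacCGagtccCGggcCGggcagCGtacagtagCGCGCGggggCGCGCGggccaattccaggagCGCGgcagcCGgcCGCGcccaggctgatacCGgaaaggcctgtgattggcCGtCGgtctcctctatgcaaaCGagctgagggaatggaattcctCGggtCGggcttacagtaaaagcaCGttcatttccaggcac
Runx1 distal start: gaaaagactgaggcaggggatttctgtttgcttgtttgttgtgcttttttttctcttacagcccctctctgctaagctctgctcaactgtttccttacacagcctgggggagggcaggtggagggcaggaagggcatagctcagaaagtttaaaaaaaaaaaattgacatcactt
The Sox21 sequence holds 17 CpG in 250 bases and is 65.2% G or C, the Foxi3 sequence 17 CpG in 175 bases and 70.3%, and the proximal Runx1 sequence 27 CpG in 250 bases and 67.6%. The distal Runx1 sequence holds 0 CpG in 175 bases and is 45.1% G or C. The table has 1 value per gene, so the use of the 2 Runx1 starts cannot be told apart.

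Runx1 was just short of the 1.5-fold line, and Runx3 was near equal in both groups. Runx factors bind DNA with the partner CBFβ. Runx1, known as a master regulator of blood stem cells and also expressed in epithelial stem cells of hair and tooth, had a mean of 56.6 in controls and 84.6 in mutants, a ratio of 1.49 (1.45 to 1.54) and a log2 difference of 0.58. Runx3 (chr4:135120652-135177990), a factor of T cells, sensory neurons and developing bone, had a mean of 36.6 in controls and 35.4 in mutants, a ratio of 0.968 (0.928 to 1.01), and its log2 difference of -0.05 turned to 0.01 with total scaling. Per kb, Runx3 was at 7.32 and Runx1 at 4.71 in controls, and the 2 were at 7.08 and 7.03 in mutants. Runx1 thereby made up 39.2% of the signal per kb of these 2 genes in controls and 49.8% in mutants. Of 7 cofactors of Runx factors, 3 were higher, 4 lower and none past 1.5-fold, with a median log2 difference of -0.01. Cbfb, the shared partner, was at 200.1 and 198.2, and the corepressor Tle4 was at 22.9 and 30.7. The macrophage markers, from cells that also express Runx1, had 5 of 6 members higher, none past 1.5-fold and a median log2 difference of 0.16, with a summed mean of 330.4 in controls and 350.3 in mutants. Of 8 lymphocyte markers 3 were listed, and Cd4 alone reached a mean of 1, at 3.62 and 5.46, a ratio of 1.51. Cd79a was at 0.304 and 0.352, and Cd3d at 0.103 and 0.109, near the value of 3 reads per library. The dental epithelium markers, given above, had a median log2 difference of 1.18, beside 0.58 for Runx1. The part of blood cells and of epithelial content in the Runx1 value was not tested.

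**Figure D2:**
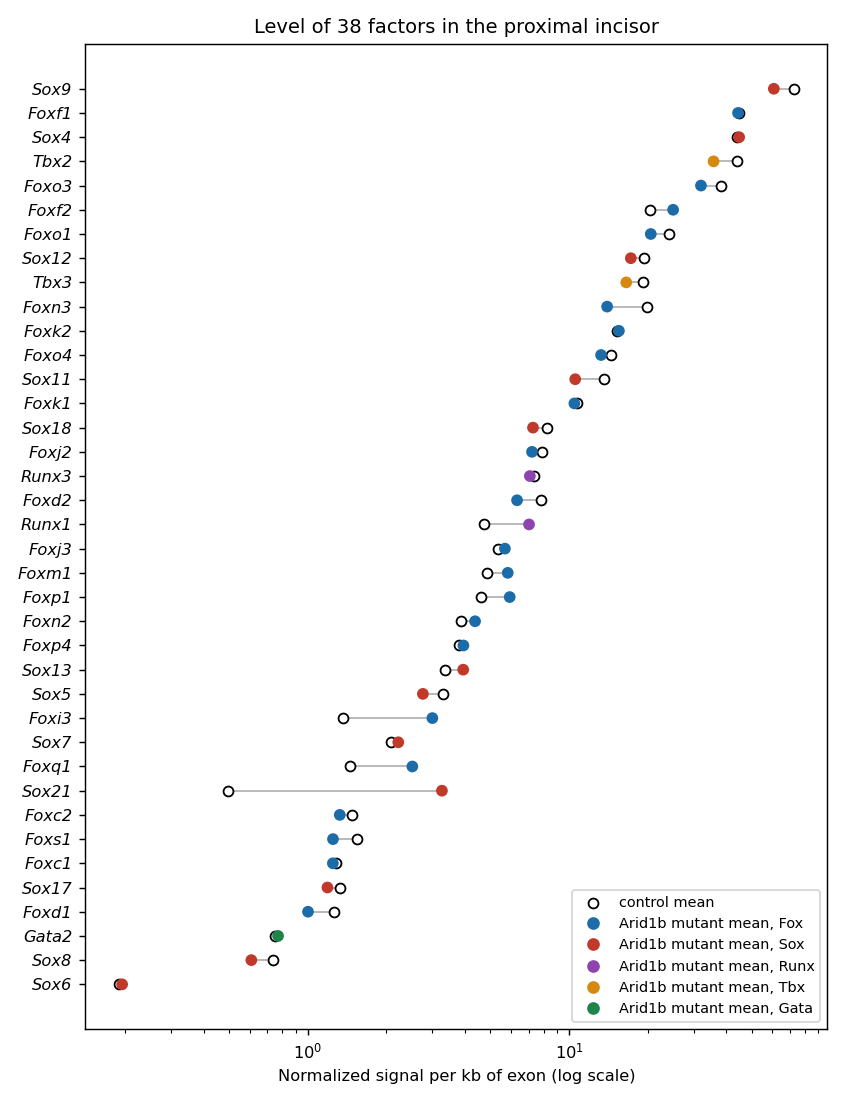
Normalised signal per kb of exon (horizontal axis, log scale) of the 38 members with a mean of at least 1, ordered by their mean over both groups, with open points for the control mean and coloured points for the mutant mean. Sox9 is at the top at 72.4 and 60.7 and Sox6 at the bottom at 0.190 and 0.195, and Sox21 has the longest line between the groups.

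Several of the members with the highest levels are known from mesenchyme, and most of the highest had a slightly lower mean in mutants. Sox9, which drives cartilage formation and marks progenitor cells of several organs, had the highest level per kb of all members, 72.4 in controls and 60.7 in mutants. Its means were 299.2 and 251.2, a ratio of 0.839 (0.827 to 0.852) and a log2 difference of -0.25. Foxf1, a hedgehog-responsive factor of mesenchyme, followed at 44.9 and 44.3 per kb, with a log2 difference of -0.02 that turned to 0.04 when each group was scaled to its total signal. Sox4, which promotes progenitor survival, was at 44.0 and 44.7 per kb with a log2 difference of 0.02, and Tbx2, a repressor, at 44.1 and 35.7 with -0.30. In controls Foxf1, Tbx2 and Sox4 lay between 44.0 and 44.9 per kb, so that their order rests on small differences of unknown spread. Foxo3 stood at 38.2 and 32.0 per kb, with a log2 difference of -0.26, Foxo1 at 24.2 and 20.5 with -0.23, Foxf2 at 20.4 and 25.0 with 0.30, Sox12 at 19.4 and 17.2 with -0.17, Tbx3 at 19.1 and 16.6 with -0.21, and Foxn3 at 19.8 and 14.0 with -0.50. Of the 10 highest members, Foxf2 and Sox4 had a higher mean in mutants and the other 8 a lower one, of which Foxf1 changes sign with total scaling.

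Among the 26 members with a mean of at least 10, 16 had a lower mean in mutants (61.5%), where 49.7% of the 10311 genes at that level did. With total scaling 13 of these members had a lower mean, where 32.8% of all genes did, a share not limited to that level. The mesenchyme markers moved the same way: 6 of 7 were lower, with a median log2 difference of -0.30 and a summed mean of 27588 in controls and 22353 in mutants. Col1a1 was at 21211 and 17127, Pdgfra at 486.8 and 423.4 and Prrx1, the exception, at 181.8 and 191.5. Gli1, whose locus carries the CreER and so has a targeted allele in the mutants, was at 106.4 in controls and 46.1 in mutants, the 1 mesenchyme marker past 1.5-fold. The part of mesenchymal content in the members' lower means was not tested.

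Sums per kb were taken over the members only, so Sox2, Sox10, Foxd3, Runx2 and Tbx1 are not in them. The Fox members were at 235.6 in controls and 225.7 in mutants and the Sox members at 169.2 and 154.9. The Tbx members were at 63.8 and 53.0, the Runx members at 12.0 and 14.1 and the Gata members at 0.858 and 0.907. All members together gave 481.4 in controls and 448.6 in mutants. A single gene carried a large share of several sums. In controls Sox9 gave 42.8% of the signal of the Sox members, Tbx2 69.1% of that of the Tbx members and Gata2 87.5% of that of the Gata members. The signal of the Fox members was spread, with Foxf1 at 19.0% and Foxo3 at 16.2%.

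Sox9 has known targets in the matrix of cartilage. Of 6 such genes 5 were listed, 4 with a lower mean in mutants and 2 lower by over 1.5-fold, with a median log2 difference of -0.31. Acan, the large proteoglycan of cartilage, was at 30.6 in controls and 14.1 in mutants, and Col9a2 at 454.5 and 294.9. Col2a1, the defining collagen of cartilage, was at 2.65 and 2.67, a low level in both groups, and Col9a1 was at 23.8 and 23.3. The cartilage markers, 4 of which are on the same list, had 3 of 4 genes with a mean of at least 1 lower in mutants and a median log2 difference of -0.17. Sox8, a relative of Sox9 in the SoxE group, was at 2.30 in controls and 1.90 in mutants, a ratio of 0.826 (0.690 to 0.985). It made up 1.01% of the summed signal per kb of Sox8 and Sox9 in controls and 0.993% in mutants. The SoxD factors Sox5 and Sox6 act with Sox9 in cartilage. Sox5 was at 47.4 and 39.7, a log2 difference of -0.26 close to that of Sox9, while Sox6 was at 2.82 and 2.89 and Sox13, the remaining SoxD gene, at 14.4 and 17.0, a log2 difference of 0.23.

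The SoxC genes Sox4, Sox11 and Sox12, which are expressed in progenitors of many tissues and bind the same motif, did not move together. Sox11 was at 113.3 in controls and 87.8 in mutants, a ratio of 0.775 (0.756 to 0.795) and a log2 difference of -0.37. Sox12 was at 86.2 and 76.8, a ratio of 0.890 (0.866 to 0.915), and Sox4 at 211.1 and 214.5, a ratio of 1.02 (0.999 to 1.03). Sox4 made up 57.2% of the SoxC signal per kb in controls and 61.7% in mutants, and Sox11 17.7% and 14.6%.

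**Figure D3:**
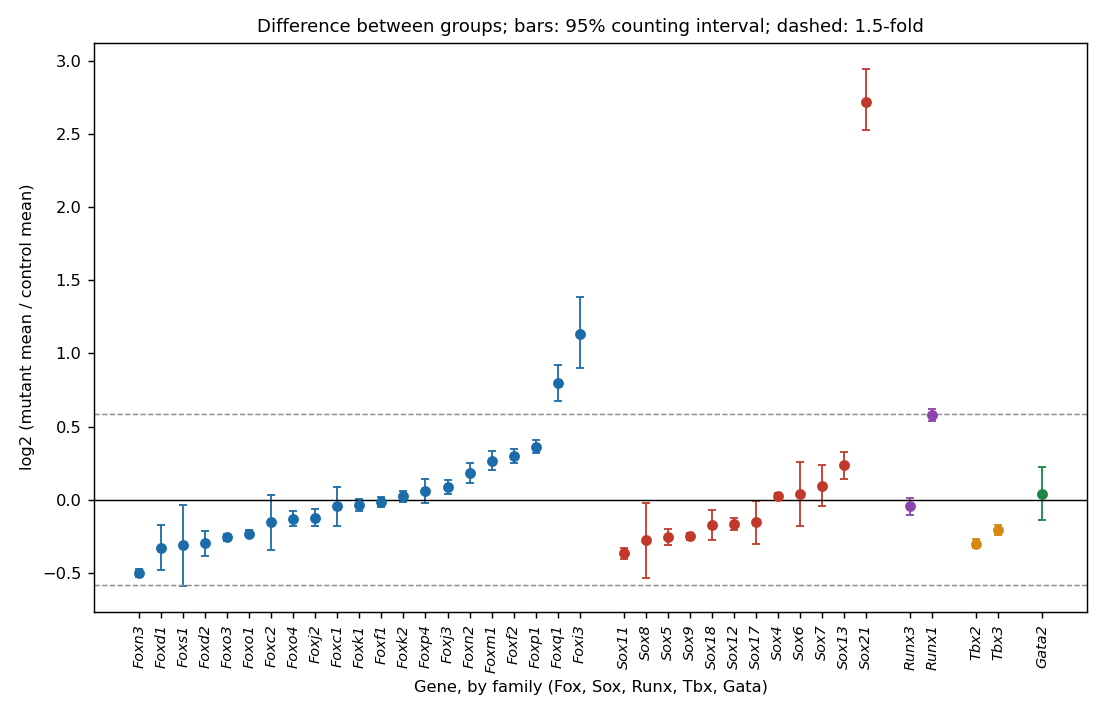
Log2 of the mutant mean over the control mean for the 38 members with a mean of at least 1, grouped and coloured by family, with bars for the 95% counting interval, which leaves out the spread between mice. The dashed lines mark 1.5-fold, Sox21 stands at 2.72, Foxi3 at 1.13 and Foxq1 at 0.80, the interval of Runx1 at 0.58 crosses the upper line, and the lowest point is Foxn3 at -0.50.

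Among the mesenchymal forkhead genes, both FoxD members had lower means in mutants. Foxd1 (chr13:98354242-98359305), known from the stroma of the kidney and from cranial neural crest, was at 6.38 in controls and 5.08 in mutants, a ratio of 0.796 (0.715 to 0.885) and a log2 difference of -0.33 on an estimated 738 and 658 reads. Foxd2 was at 20.2 and 16.4, a ratio of 0.812 (0.765 to 0.862). Foxf2, the relative of Foxf1, had a higher mean instead, 48.1 and 59.1, a ratio of 1.23 (1.19 to 1.27). Foxc1 and Foxc2, regulators of mesenchyme and vessels, were at 7.54 and 7.30 and at 4.03 and 3.62, and the intervals of both ratios include 1. Foxs1, a factor of perivascular cells, was at 2.03 and 1.64, a ratio of 0.807 (0.664 to 0.973). Of the 6 perivascular markers 3 were higher and 3 lower, with a median log2 difference of -0.02, and they went in both directions: Tagln, a contractile gene, was at 28.3 and 51.8, and Kcnj8, a pericyte gene, at 21.5 and 11.0.

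FoxO factors act in stress resistance and stem cell quiescence and are held out of the nucleus by growth factor signalling. The 3 FoxO genes with a mean of at least 1 all had a slightly lower mean in mutants. Foxo3 was at 289.6 in controls and 242.0 in mutants, a ratio of 0.836 (0.823 to 0.849), Foxo1 at 209.3 and 178.0, a ratio of 0.851 (0.835 to 0.866), and Foxo4, the only X-linked member, at 50.6 and 46.2, a ratio of 0.913 (0.880 to 0.946). Of 9 FoxO targets 5 were higher, 4 lower and none past 1.5-fold, with a median log2 difference of 0.02. Pdk4, which diverts glucose from oxidation, was at 134.0 and 106.9 and Sesn3, a stress sensor, at 612.2 and 540.4, while Irs2 was at 47.7 and 60.4 and the cell cycle inhibitor Cdkn1b at 126.2 and 128.1.

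Foxm1, the forkhead activator of the genes for mitosis, was at 27.9 in controls and 33.5 in mutants, a ratio of 1.20 (1.15 to 1.26) and a log2 difference of 0.27. All 7 of its listed targets had a higher mean in mutants, 3 by over 1.5-fold, with a median log2 difference of 0.43. Ccnb2, a mitotic cyclin, was at 13.3 and 21.8, Ccnb1 at 22.9 and 35.6, and Cenpf, a kinetochore gene, at 46.7 and 73.5. Plk1 and Aurkb, kinases of mitosis, were at 10.6 and 14.2 and at 14.1 and 18.0. The targets' differences were all larger than that of Foxm1.

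**Figure D4:**
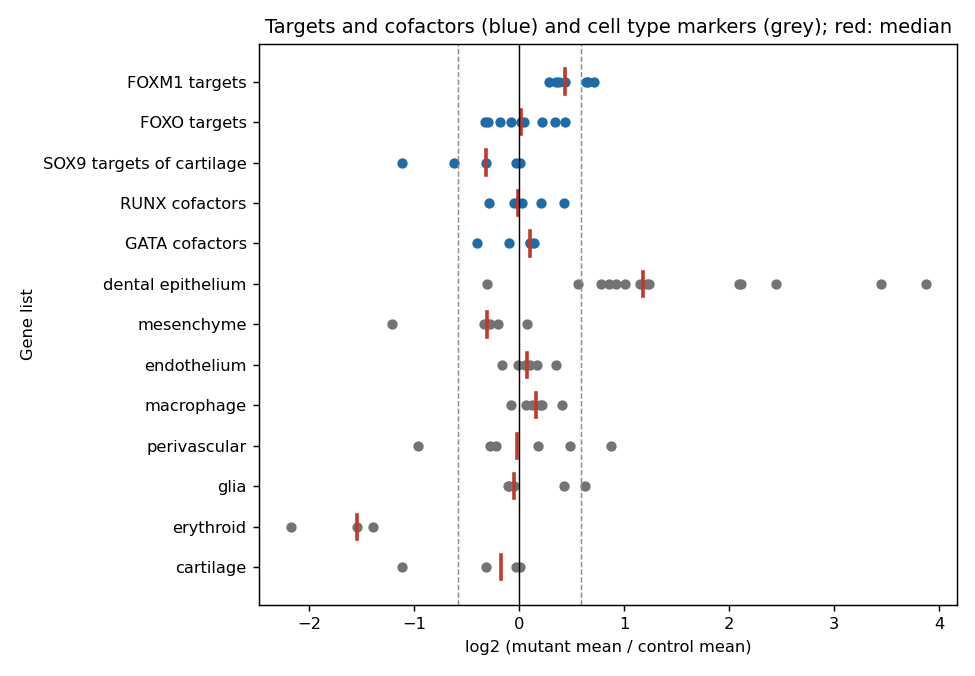
Log2 of the mutant mean over the control mean (horizontal axis) of genes with a mean of at least 1 in the lists of targets and cofactors (blue) and of cell type markers (grey), with a red bar at each list's median and dashed lines at 1.5-fold. The lymphocyte, skeletal muscle, multiciliated cell and sex-linked markers are not drawn. FOXM1 targets all lie to the right of 0, the dental epithelium markers have a median of 1.18, and the erythroid markers have a median of -1.54.

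The remaining forkhead genes are broadly expressed. Foxn3, a repressor linked to cell cycle checkpoints (chr12:99190078-99563582), had the lowest log2 difference of the 38 members, with means of 228.1 and 160.8 and a ratio of 0.705 (0.692 to 0.718), while its relative Foxn2 was at 28.4 and 32.2, a ratio of 1.13 (1.08 to 1.19). Foxn3 made up 83.6% of the FoxN signal per kb in controls and 75.8% in mutants. Foxp1, a repressor active in epithelia, bone and lymphocytes, was at 63.4 and 81.5, a log2 difference of 0.36 (0.32 to 0.41), and Foxp4 at 18.7 and 19.4. The pairs Foxk1 and Foxk2, regulators of metabolism, and Foxj2 and Foxj3 lay within a log2 difference of -0.12 to 0.09.

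The SoxF genes Sox7, Sox17 and Sox18, which specify endothelium, had log2 differences between -0.17 and 0.10, with Sox7 at 6.86 and 7.33, Sox17 at 6.33 and 5.68 and Sox18 at 13.3 and 11.8. Gata2, a factor of blood progenitors and endothelium and the only Gata gene with a mean of at least 1, was at 4.05 in controls and 4.16 in mutants, a ratio of 1.03 (0.906 to 1.17). Of 5 Gata cofactors 3 were higher, 2 lower and none past 1.5-fold, with a median log2 difference of 0.10, Tal1 at 2.85 and 3.06 and Lmo2 at 9.77 and 10.8 among them. The 7 endothelial markers had 5 higher, 2 lower and none past 1.5-fold, with a median log2 difference of 0.07 and a summed mean of 381.3 and 396.2. Erythroid markers were lower in mutants, with Hbb-bs at 29.0 and 9.97 and a summed mean of 43.5 and 14.8, and all 3 that reached a mean of 1 passed 1.5-fold.

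The T-box members with a mean of at least 1 were Tbx2 and Tbx3, repressors of the same subfamily that restrain cell cycle inhibitors. Both had a lower mean in mutants, Tbx2 at 159.8 and 129.5, a ratio of 0.811 (0.794 to 0.828), and Tbx3 (chr5:119670669-119684724) at 126.6 and 109.6, a ratio of 0.866 (0.846 to 0.886). Tbx2 gave 69.6% and Tbx3 30.2% of the signal per kb of the Tbx2, Tbx3 and Tbx4 genes in controls, and 68.1% and 31.6% in mutants, so their proportion was nearly the same in both groups. Tbx4, which lies 44.5 kb from Tbx2 on chromosome 11, was at 0.438 and 0.500.

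Several forkhead genes lie close together in the genome. On chromosome 13, Foxq1 lies 64.8 kb from Foxf2 and Foxf2 lies 175.2 kb from Foxc1, with log2 differences of 0.80, 0.30 and -0.05 in that order. On chromosome 8, Foxf1 lies 28.0 kb from Foxc2, with -0.02 and -0.16. For 14 members, among them Sox21, Foxq1, Runx1, Tbx3 and Sox4, an annotated gene on the opposite strand overlaps an exon, and whether the counting used strand is not given in the sources used here, so reads of the 2 genes may be mixed there.

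RefSeq promoter windows, 250 bases before to 50 after a start on GRCm38.p6, were found for 32 members, 42 windows in all. Their median G and C share was 64.7%, beside 60.0% over 16185 windows of 12719 genes of the table, and they held a median of 21.5 CpG, beside 18.0. Searched on both strands, the Runx motif TGTGGT was in 11.9% of the members' windows and 12.9% of all windows, the Sox motif ACAATG in 9.52% and 7.75%, the Fox motif TGTTTAC in 2.38% and 2.61%, and the Gata motif AGATAA in 2.38% and 6.80%. The T-box motif TCACACCT was in 0 of the 42 windows and 0.816% of all, and the E-box CACGTG and the CRE motif TGACGTCA were in 4.76% and 0% of the members' windows and 9.29% and 2.72% of all. No motif holds another of these whole on either strand, and a match describes the letters only.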

How the data were processed

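Bulk RNA from 3 control and 3 Arid1b mutant mouse incisors was sequenced by the authors. Reads were trimmed and aligned to mm10 (TopHat2 2.0.8 in the submitters' processing notes) and analysed in Partek Flow. The counter, annotation, strand setting and normalization are not given in the sources used here. The deposited values are normalised signal, 1 authors' mean per group for each of 19270 genes, and a summary of each library, of which 4 columns were not used. The authors' p-value, FDR, ratio and fold-change columns hold their own comparison and were not used (4 columns). Whether the 3 libraries of a group came from separate mice is not stated in the labels. The limma test first planned needs values per gene and library, and was not applied.

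A value was read as (reads + 1) times a library factor, the lowest value. This is an inference: among means within 5 reads of the lowest, 61.8% of 68 control and 46.9% of 49 mutant means came out as whole reads (tolerance 0.01 read). A match was to any combination of whole reads over the libraries of a group. The share that would match by chance was not computed. Reads behind each mean gave exact binomial intervals at 95%. A member was called when its fold was over 1.5 and its mean at least 1. Genes named are Sox9, Runx1, Foxd1 and Tbx3, members past the fold, the 10 highest per kb, the highest of each family, and members within 0.05 log2 of the threshold. The other members and the genes of the lists were named after their values were seen. The members and all gene lists were chosen with earlier results of these data known. The lists were dental epithelium, mesenchyme, endothelium, macrophage, lymphocyte, perivascular, glia, erythroid, cartilage, skeletal muscle, multiciliated cell and sex-linked markers, and cofactors or targets of Runx, Gata, FoxO, Foxm1 and Sox9.

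Exon lengths, positions and opposite-strand genes came from GENCODE vM21 on GRCm38, the mm10 assembly, and promoter windows from RefSeq on GRCm38.p6. Filters, folds, a pseudocount of 1 and other scalings were varied. The calculations were tested on simulated data. The tools were Python 3.11.15 with pandas 2.3.3, scipy 1.17.1 and numpy 2.4.6, and plots were drawn in matplotlib 3.10.9. Some items are not reported here.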

Additional observations from a re-analysis of the deposited data

How the results depend on the processing

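The count of 3 members higher in mutants was 7 with no filter but 3 reads per library. It was 0 with a mean of at least 10, where 222 of 10311 genes were higher by over 1.5-fold. With a log2 difference over 0.32 it was 5, where 9.10% of all genes passed. Leaving out Sox21, Foxi3 and Foxq1, which was chosen after seeing the data, gives 0 by construction, since these are the 3 genes counted. The count higher was 2 with a fold over 2, 3 with a pseudocount of 1 and 4 with total scaling, which added Runx1 at a log2 difference of 0.64. The count of 0 members lower was 2 with no filter but the 3 reads and 3 with the line of 0.32, where 7.12% of all genes passed. For the other settings no share over all genes is given here, so these counts show only how the calls move. The median log2 difference of -0.05 was 0.060 as a mean over the members and 0.01 with total scaling, which moves every log2 difference by 0.06 and turned the sign of 4 members, Foxf1 (0.04) and Runx3 (0.01) among them. The totals were 1022270 in controls and 980229 in mutants. A single entry, CT010467.1, with a mean of 81029 over both groups and a log2 difference of -0.38, weighs on these totals. With a pseudocount of 1 the log2 difference was 2.22 for Sox21 and 0.81 for Foxi3. No paired analysis was possible because the tables analysed here hold no values per gene and library, and leaving out each replicate in turn was not run for the same reason. Whether a single mouse carries a difference therefore cannot be seen, and the intervals, which rest on inferred reads, limit only the counting error.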

Other observations

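The 14 members with a mean below 1 were Foxb1, Foxe3, Foxj1, Foxl1, Foxn1, Foxo6, Foxp2, Gata3, Sox30, Tbx4, Tbx6, Tbx15, Tbx20 and Tbx21. Foxn1, known for its role in hair keratinocytes and thymic epithelium, was at 0.105 in controls and 0.314 in mutants, an estimated 9 and 38 reads and a ratio of 2.98 (1.79 to 8.86), with the control mean next to the 0.103 of 3 reads per library. Tbx15, a factor of skeletal and dermal mesenchyme, was at 0.266 and 0.452, a ratio of 1.70 (1.11 to 2.92), Foxp2 at 0.215 and 0.363, a ratio of 1.69 (1.05 to 3.13), and Foxo6 at 0.505 and 0.779, a ratio of 1.54 (1.11 to 2.21). Foxe3, a gene of the lens, was at 0.279 and 0.172 and Foxb1 at 0.252 and 0.157, and the counting intervals of both ratios include 1. Gata3, known from epithelium and T cells, was at 0.427 and 0.541. Foxj1, the regulator of motile cilia, was at 0.514 and 0.626, beside multiciliated cell markers of which 3 of 4 were listed and Ccdc39 alone reached a mean of 1, at 5.09 and 6.31.

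The marker lists not described above gave these values. The 5 glial markers had 2 higher, 3 lower and a median log2 difference of -0.05, with S100b past 1.5-fold at 1.18 and 1.83. Of 5 skeletal muscle markers 4 were listed, and of the 3 with a mean of at least 1, Myh4 was at 0.552 and 2.06, Acta1 at 2.50 and 1.12 and Tnnt3 at 1.41 and 0.919. The 4 Y-linked genes of the sex-linked list were listed between 0.0259 and 0.0434 in controls and between 25.3 and 65.3 in mutants.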
